A study of Mus musculus with 2 samples.

Results

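Contigs are stretches of the genome that the deposited data list as covered by sequencing reads on 1 strand. How they were called is not stated in the sources used here. Of 702418 contigs of at least 200 nt from embryonic mouse central nervous system RNA, 93351 (13.3%) overlapped no annotated gene and lay more than 10 kb from every gene on either strand. They are called far contigs here. The annotation was the Ensembl release 65 gene table deposited with the contigs on the mm9 genome build, with 37310 genes. The other contigs of that length comprised 79144 within 10 kb of a gene and 529923 that overlapped one, and a further 221987 contigs were shorter and were left out. Coverage, splicing and the strand of a contig did not enter the choice. Length and distance to genes did, so the lengths and distances given below depend on the limits of 200 nt and 10 kb. The members just inside and outside the limits were alike: the 3476 contigs at 10 to 11 kb from a gene had a median coverage of 2.76 reads per nt, and the 3772 contigs at 9 to 10 kb had 2.77 reads per nt. By length, 4423 far-lying contigs of 200 to 209 nt had a median of 2.00 reads per nt, and 4751 of 190 to 199 nt had 2.09 reads per nt.

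The RNA came from whole central nervous system of C57BL/6J mouse embryos at day 14, from pooled male and female littermates, and the labels describe 1 group of 2 biological replicates under a shared donor identifier, with no treatment. The strand-specific paired-end libraries were made of poly(A)+ RNA over 200 nt long after removal of ribosomal RNA, and expected counts on mm10 summed to 102727538 for replicate 1 and to 138440954 for replicate 2. The contig table gives 1 coverage value per contig for all libraries together, so coverage has no replicate error. Splice junctions carry reads, and assembled gene models carry RPKM, in a pair of fields that no label matches to the numbered replicates; they are called field 1 and field 2, and the junction fields held 52713700 and 71600793 reads. Tissue markers were present: the neuronal tubulin Tubb3 had 1820 and 2133 TPM, the deposited transcript abundance, in replicates 1 and 2, and the radial glia filament Vim had 913 and 961 TPM. All 8 markers of neighbouring tissues were higher in replicate 1, as for the muscle myosin Myh3 (32.1 and 0.34 TPM), the cartilage matrix gene Matn1 (177 and 7.34 TPM) and the globin Hba-a1 (2151 and 1085 TPM).

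RNA outside annotated genes can come from long non-coding RNAs, from unannotated first exons and introns of known genes, from transcription that runs past gene ends, and from enhancers. Many genes for neuronal adhesion, guidance and splicing proteins are very long, have several alternative promoters and sit in gene-poor stretches, and developmental transcription factor genes often do too. Poly(A)+ RNA of fetal brain still holds unspliced precursor RNA, so introns of such genes are read at low coverage. In bulk tissue, fewer cells with a transcript and less of it per cell cannot be told apart.

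Splice junctions with at least 1 end in a far contig tie several of these transcripts to sequences of a later annotation. The intron lengths of the mm9 junctions were looked up among genes of the later GENCODE M21 annotation that lie between the same neighbouring genes on the same strand, and where a length was identical the joined exon ends were read from the M21 transcript. The bases are thus those of the annotation and were not read from these libraries. At Gm17750, D430019H16Rik, Lockd, Robo1 and Tmem178b only 1 intron of the locus matched. The lines below give the last bases of the upstream exon in lower case and the first bases of the downstream exon in capitals, and they are shown because each is the most-read junction of a locus described in the results, chosen where it is non-coding or lies between coding exons.
Gm17750 exon 1 to 2: agattgtcaataaagGAATGTCCATCTGGA
A230057D06Rik exon 4 to 5: tctgacaaaacgaggAGTCTTGCTGTCCTG
Gm9801 exon 15 to 16: cattttcaatgtaggCTTTAAAGCTGGACC
D430019H16Rik exon 1 to 2: tttatggccgctcagTTGCCCATGATGGGA
Lockd exon 1 to 2: ccctgtcttggaaagGAGGCTGCTCACAGC
Gm29260 exon 5 to 6: tcccaggattcccagCATTGATTTTTCAGA
Sfta3-ps exon 1 to 2: ttatcaaacactaagGCTTGTGCCGTGGAC
Robo1 exon 1 to 2: cgctgggctacacagGCTCCCGTCTTCGTC
Tmem178b exon 2 to 3: agtggcacgccctgcATCTTCGTAGAATGA

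On mm10 the introns removed at these points lie at chr13:84025704-84064650 for Gm17750, chr7:61911474-61913206 for A230057D06Rik, chr7:62119044-62190716 for Gm9801 and chr12:56503637-56504120 for Sfta3-ps, all on the minus strand. Those on the plus strand lie at chr12:105454151-105487604 for D430019H16Rik, chr6:134929261-134951305 for Lockd, chr1:41920022-41937435 for Gm29260, chr16:72563784-72742125 for Robo1 and chr6:40004259-40207395 for Tmem178b. Robo1, a receptor for Slit guidance cues, and Tmem178b, a membrane protein gene, were already in the mm9 table with shorter spans, and so was the non-coding Gm9801. The other 6 are absent from it: D430019H16Rik is annotated as protein-coding in M21, Sfta3-ps as a processed transcript, and the rest as lincRNAs, that is, long intergenic non-coding RNAs.

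Far contigs were short and thinly covered. Their median length was 368 nt (quartiles 268 and 593 nt, longest 46079 nt), against 396 nt within 10 kb of a gene and 538 nt in genes. Their median coverage was 2.74 reads per nt (quartiles 1.88 and 4.25, 90th percentile 6.92), against 2.93 reads per nt within 10 kb and 4.10 reads per nt in genes. They spanned 59.1 Mb and held 1.54% of the summed coverage of all contigs, against 50.4 Mb and 1.05% for contigs within 10 kb and 703 Mb and 96.9% for contigs in genes. The library preparation kept strand: 98.3% of the coverage of contigs in genes lay on the strand of a gene. Far contigs fell almost evenly on the strands, 46106 on plus and 47245 on minus, and 11.9% of them faced a contig on the other strand, against 24.4% within 10 kb and 22.2% in genes.

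**Figure D1:**
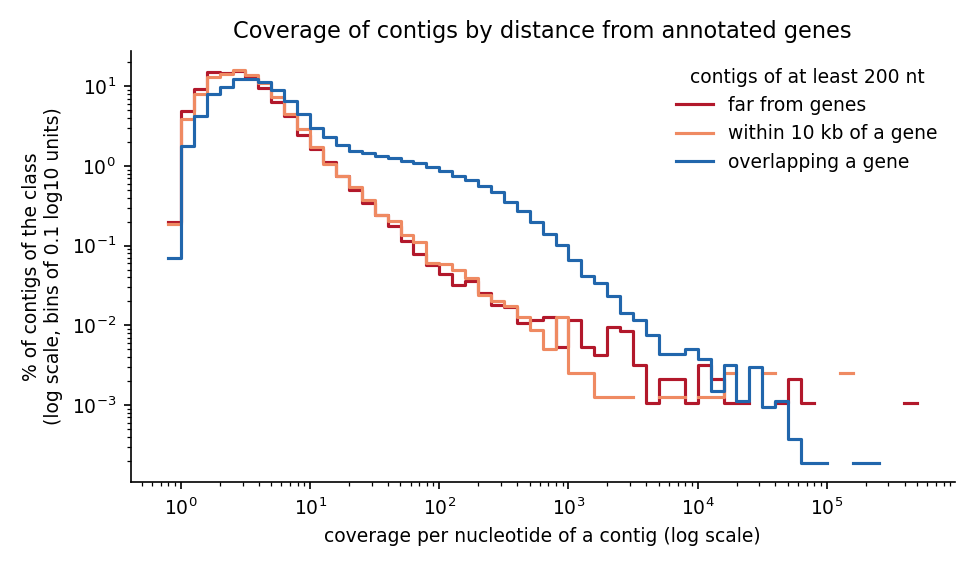
Share of contigs (per cent of the class, log scale) in bins of coverage per nt (reads per nt, log scale) for far contigs, contigs within 10 kb of a gene and contigs overlapping a gene, all of at least 200 nt. The 3 curves peak at a few reads per nt, the curve for genes stays above the others between about 10 and 1000 reads per nt, and the farthest step to the right is a far contig at 407000 reads per nt.

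A splice junction with reads in both fields ended in 4287 far contigs (4.59%, exact 95% interval 4.46 to 4.73%), in 4.29% of contigs within 10 kb (4.15 to 4.43%) and in 17.7% of contigs in genes (17.6 to 17.8%). These intervals cover counting error only, and contigs of the same transcript are not independent. The junction share followed coverage. At 2 to 3 reads per nt it was 1.53% in far contigs, 1.37% within 10 kb and 1.19% in genes, and at 5 to 10 reads per nt it was 10.6%, 8.73% and 8.83% in the same order. Above that the classes parted: at 20 to 50 reads per nt 41.6% of far contigs held a junction end, against 40.9% within 10 kb and 83.6% in genes, and at 100 to 1000 reads per nt the shares were 33.5%, 53.8% and 97.2%. Well-covered far contigs thus held a junction end less often than contigs in genes at the same coverage, while thinly covered ones did not. Well-covered far contigs were also shorter, with a median of 624 nt against 2870 nt in genes at 100 to 1000 reads per nt. At 2 to 3 reads per nt the median lengths were 355 and 388 nt. The part of contig length was not tested. Exons of gene models assembled by the authors with Cufflinks, a program that builds transcripts from aligned reads, overlapped 27969 far contigs (30.0%), 36.2% of contigs within 10 kb and 22.4% of contigs in genes.

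The far contigs were joined into loci where neighbours on a strand lay no more than 5 kb apart, which gave 21484 loci. Of these, 11631 held a single contig and had a median coverage of 1.96 reads per nt. A further 7897 loci of 2 to 9 contigs had a median span of 3.87 kb. The remaining 1956 loci of 10 or more contigs held 56.5% of all far contigs, spanned a median of 20.9 kb and had a median coverage of 3.75 reads per nt. Most of the far contigs thus lay in strings of 10 or more, which are on 1 strand because only neighbours on a strand were joined. In 74 loci of 100 contigs or more the median span was 178 kb, the longest was 1050 kb and the median coverage was 5.40 reads per nt. Longer strings were spliced more often: a junction ended in 2.98% of single contigs, 12.5% of loci of 2 to 9 contigs, 48.2% of loci of 10 or more and 77.0% of loci of 100 or more. More contigs also give more places for a junction to be seen, and the part of that was not tested.

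**Figure D2:**
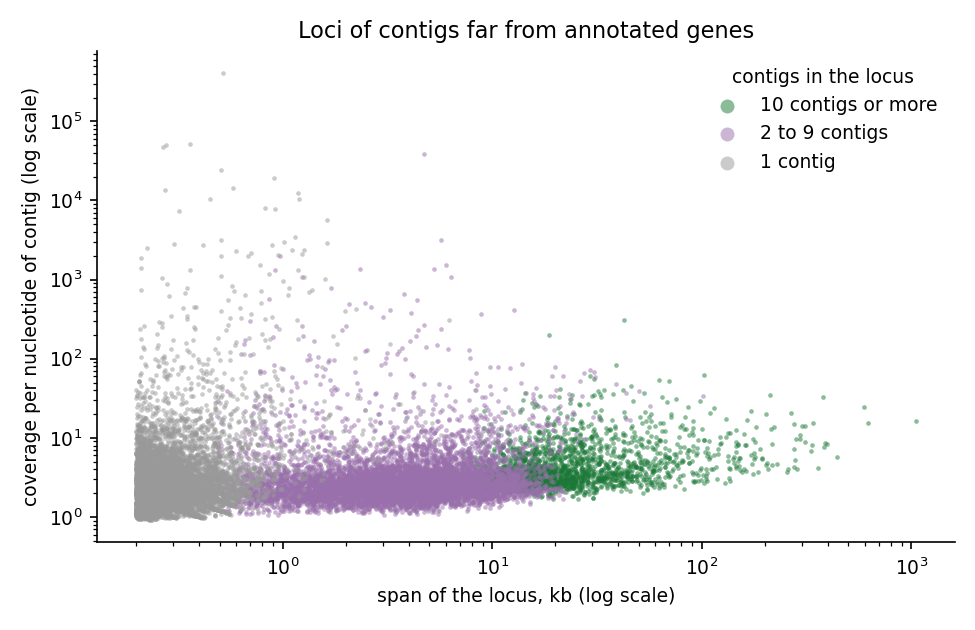
Each point is 1 of 21484 loci of far contigs, placed by its span (kb, log scale) and its coverage per nt of contig (reads per nt, log scale), and coloured by the number of contigs in it. Single contigs reach the highest coverage at spans near 0.5 kb, and loci of 10 or more contigs extend to 1050 kb at coverages mostly between 2 and 50 reads per nt.

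Summed coverage was concentrated in a few short contigs. A single contig at chr3:5860318-5860835 on the plus strand, 518 nt long, held 21.4% of all coverage of far contigs at 407000 reads per nt. Its nearest gene was Pex2, a peroxisome assembly factor, 284 kb away. The 10 contigs with most coverage held 35.2%, the top 100 held 53.1% and the top 1000 held 72.0%. Coverage of 1000 reads per nt or more was reached by 58 far contigs, which held 46.6% of the coverage of the class. They were short, with a median length of 548 nt, and 41 of them (70.7%) stood alone as their locus, against 12.4% of the other far contigs. Of the 58, 34 (58.6%) held a junction end and 55 (94.8%) overlapped an assembled exon. At that coverage the shares were 58.8% and 100% of 17 contigs within 10 kb of a gene, and 89.3% and 95.6% of 1211 contigs in genes. Of the other far contigs, 4.56% held a junction end.

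By summed coverage, the 10 leading loci were of both kinds. Second came a pair of contigs at chr14:105110604-105115302 (minus strand, 2.25% of the coverage), the denser of which had 69400 reads per nt. It was followed by chr8:15519773-15520132 (plus, 51600 reads per nt). The nearest protein-coding gene there was Csmd1, a large neural membrane protein gene, 372 kb away, and the nearest gene of any kind lay 101 kb away. Next came chr6:3150759-3151671 (plus, 19300 reads per nt), with no annotated gene between it and the start of the chromosome. Further short ones were chr2:22599526-22600712 (minus, 12600 reads per nt), chr18:68851699-68851974 (plus, 50600 reads per nt) and chr1:104524667-104524935 (minus, 47100 reads per nt). The other 3 were long loci of a different shape. The locus at chr16:5753510-6799097 on the plus strand had 357 contigs over 1050 kb at 16.4 reads per nt and ended 10.2 kb before Rbfox1, a neuronal splicing regulator. The locus at chr16:72027513-72624741 on the plus strand had 183 contigs at 24.9 reads per nt and ended 38.7 kb before Robo1. The locus at chr12:106692035-106734545 on the plus strand had 11 contigs at 307 reads per nt and is that of D430019H16Rik. The other 7 loci were compact and dense, and whether their reads also fit repeated or duplicated sequence was not tested.

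Far contigs were a median of 39.9 kb from the nearest gene of any kind (quartiles 19.2 and 95.6 kb, farthest 1060 kb) and 67.2 kb from the nearest protein-coding gene. They lay more often on the strand of the nearest gene than on the other strand. In all, 54786 (58.7%, exact 95% interval 58.4 to 59.0%) shared the strand of the nearest gene and 56701 (60.7%) that of the nearest protein-coding gene. The interval treats contigs as independent, though contigs of a string share a strand. Counted by locus the bias was smaller: 11441 of 21484 loci (53.3%) shared the strand of the nearest protein-coding gene. Downstream of the gene on its strand lay 34.6%, upstream on its strand 24.1%, upstream on the opposite strand 23.3% and downstream on the opposite strand 18%. The mix changed with distance. Among contigs 10 to 20 kb away 38.7% were downstream on the same strand and 21% upstream on the same strand, and at 100 to 200 kb the shares were 33.0% and 25.8%. Beyond 500 kb, where 1024 contigs remained, 49.2% were upstream on the same strand and 5.27% downstream on the same strand. The opposite-strand shares beyond 500 kb were 38.3% upstream and 7.23% downstream.

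**Figure D3:**
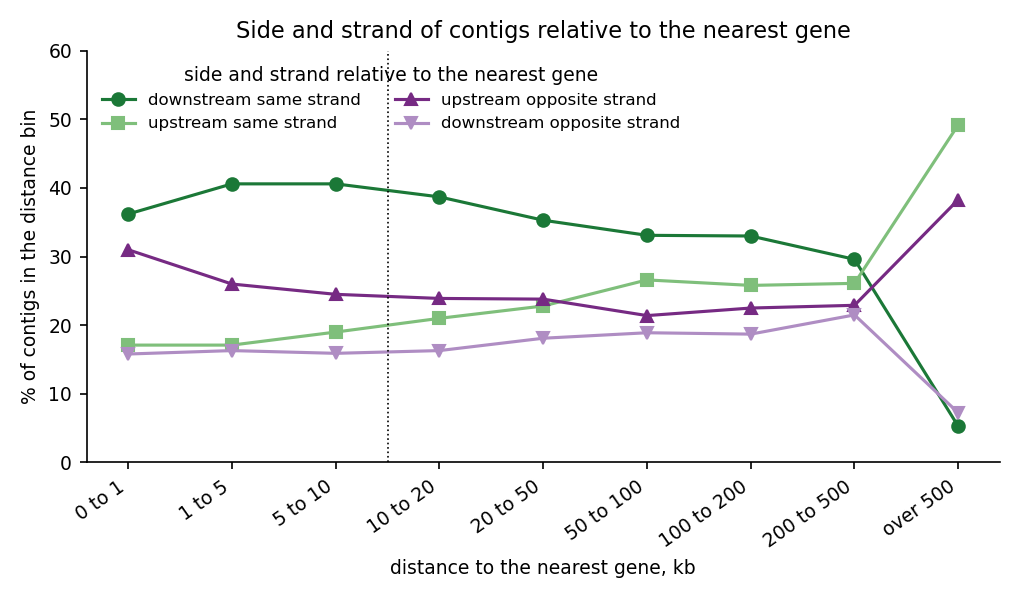
Share of contigs (per cent of each bin) by side and strand relative to the nearest gene, against distance to that gene in kb; bins left of the dotted line are contigs within 10 kb, those right of it are far contigs. Downstream contigs on the gene's strand lead up to 500 kb, where they fall below the upstream ones, and in the last bin upstream contigs on the same strand make up 49.2%.

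The strand bias grew with the size of the locus. The share of loci on the strand of the nearest protein-coding gene was 50.8% for single contigs, 54.8% for 2 to 9 contigs, 61.6% for 10 or more, 74.0% for 50 or more and 78.4% for 100 or more. Loci upstream on the gene's strand made up 54.1% of those with 100 contigs or more, against 23.3% of single contigs. It also went with the level of the neighbour. Where the nearest protein-coding gene had under 0.1 RPKM, a read density scaled for gene length and library size, 50.1% of 11459 far contigs shared its strand, and the shares were 63.0% at 0.1 to 1 RPKM, 62.7% at 1 to 10 RPKM and 58.1% at 10 RPKM and over. Thus single contigs, and contigs beside silent genes, were about evenly split between strands.

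Some neighbourhoods were crowded. The gene with most far contigs was Tenm3, a teneurin of neuronal adhesion, nearest protein-coding gene to 1687 of them, 1588 upstream on its strand and up to 2240 kb away, with 33.1 ± 5.73 TPM (SD, n = 2, as for all such values). Its relatives Tenm2 and Tenm4 had 682 and 468, with 674 and 466 upstream on their strand. The adhesion gene Lsamp had 692 (646 upstream on its strand), the homeodomain factor gene Zfhx3 563 (505), the Slit receptor gene Robo2 468 (456) and the muscarinic receptor gene Chrm3 460 (431). Nlgn1, a synaptic adhesion gene, was different, with 154 upstream and 322 downstream on its strand. Strings upstream on the gene's strand thus led in 7 of these 8 neighbourhoods, which were picked from the 15 genes with most far contigs for their neural roles. Others of the 15 lay across the same gene-poor stretches: Mat2b had 606 downstream on its strand in the stretch that ends at Tenm2, Fam181b 473 downstream on its strand in the stretch that ends at Tenm4, and Eef2kmt 489 upstream on the opposite strand in the stretch that ends at Rbfox1. A string between a pair of genes thus counts as upstream of one and downstream of the other. In the later M21 annotation the spans of several had grown, by stable identifier: Lsamp to 2200 kb, against 649 kb in the mm9 table, Zfhx3 to 1020 kb, against 247 kb, and Chrm3 to 485 kb, against 1.95 kb. Tenm2, Tenm4 and Robo2 kept spans of 1230, 740 and 520 kb, and Tenm3 had 616 kb, against 447 kb.

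The strands were compared within 1.2 Mb before the annotated starts of 6 genes, with every far contig counted whichever gene was nearest to it. The windows can thus run past other genes. Rbfox1 had 482 far contigs on its strand covering 1060 kb, against 69 on the opposite strand covering 21.3 kb. Robo1 had 191 covering 587 kb against 37 covering 12 kb, Nav3, a neuron navigator gene, 116 covering 413 kb against 31 covering 10.5 kb, and Nrg1, an Erbb receptor ligand gene, 220 covering 758 kb against 52 covering 16.5 kb. Lsamp had 644 covering 1010 kb against 44 covering 13.6 kb. Tmem178b alone had fewer contigs on its strand, 47 against 79, though they covered 223 kb against 65.4 kb. Of the far contigs with Tmem178b as nearest protein-coding gene, 30 lay upstream on its strand and 13 upstream on the opposite strand. Contigs on the gene's strand had the higher median coverage in all 6, from 4.67 against 2.71 reads per nt at Rbfox1 to 9.77 against 2.69 reads per nt at Nav3. M21 gives Rbfox1 a span of 1530 kb, against 603 kb in the mm9 table, Nrg1 1070 kb, against 191 kb, Nav3 775 kb, against 318 kb, Robo1 738 kb, against 383 kb, and Tmem178b 382 kb, against 138 kb. These 6 genes were picked for their upstream contigs, so the values describe them and support no general statement.

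**Figure D4:**
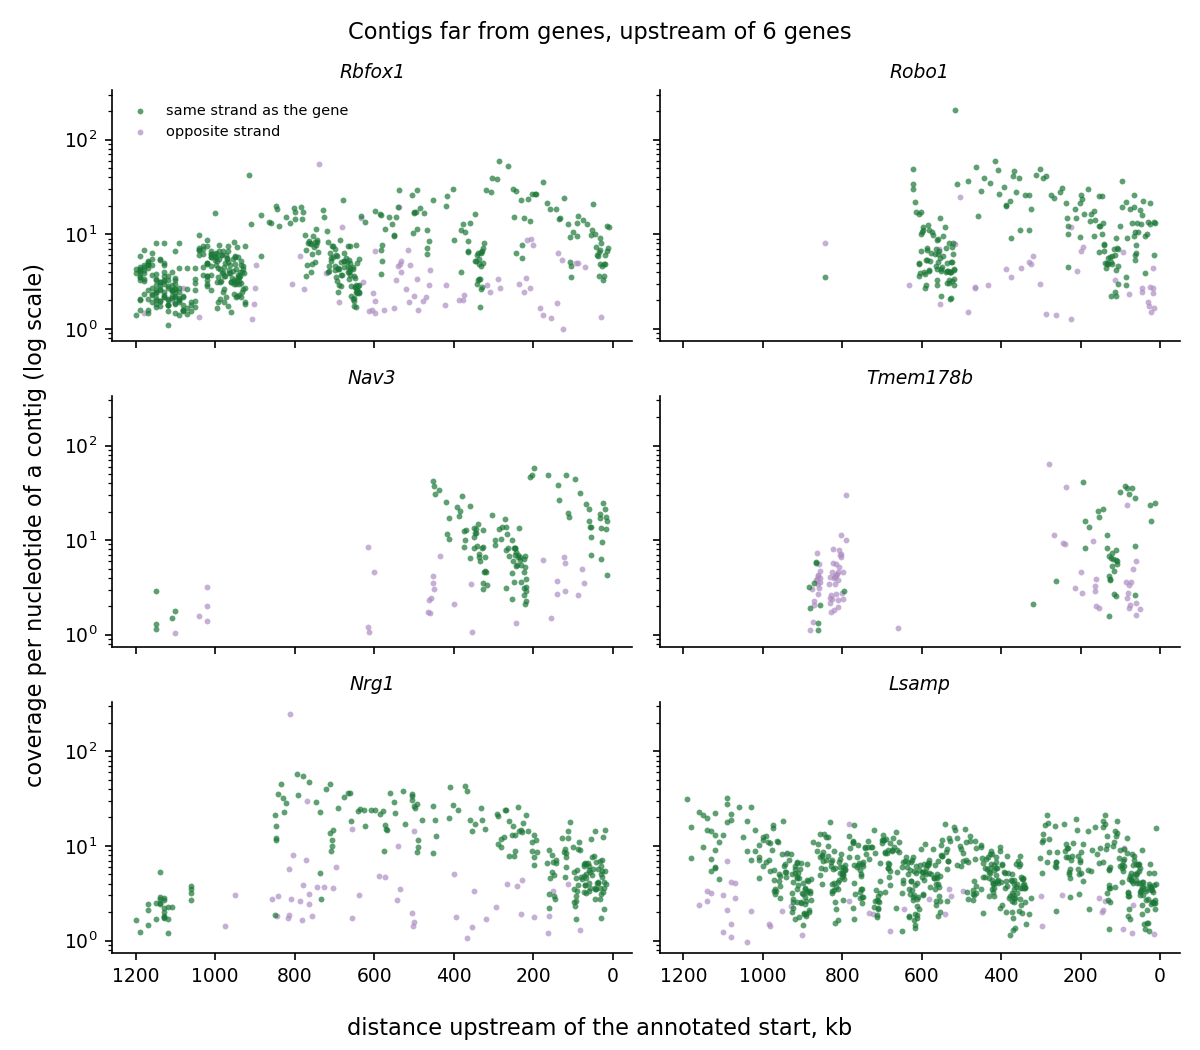
Coverage of each far contig (reads per nt, log scale) against its distance in kb upstream of the annotated mm9 start of 6 genes, with contigs on the gene's strand in green and on the opposite strand in purple. Green contigs outnumber purple ones at every gene except Tmem178b, and they thin out sharply in the farther part of the window at Robo1, Nav3 and Nrg1.

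Splice junctions tied some of these contigs to genes. In all, 6400 junctions with reads in both fields had an end in a far contig, with 161784 reads and a median of 5 reads each. None of the 6400 was marked as annotated, which follows from the choice of far contigs if that mark rests on the same annotation. Both ends lay in far contigs in 3363 (52.5%), the other end lay in an annotated gene in 652 (10.2%), and in 2385 it lay elsewhere. The 652 joined 413 genes: 334 junctions with 13195 reads led upstream into 199 genes, and 318 junctions with 5418 reads led downstream from 224 genes. Of 20175 protein-coding genes found in both annotations, 322 were joined in this way, which is 1.60%.

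Genes that a junction joined to a far contig were often longer in the later annotation. A span over 10 kb longer in M21 than in the mm9 table was found for 108 of the 322 joined genes (33.5%), against 3.62% of all 20175 protein-coding genes. For genes joined only upstream it was 73 of 165 (44.2%), and for genes joined only downstream 30 of 152 (19.7%). With 100 or more reads it was 19 of 24 genes joined upstream (79.2%) and 0 of 6 joined downstream. M21 draws on RNA evidence of many tissues, so its growth is a separate annotation and not a second sample of this RNA; joined genes were also longer to begin with, with a median span of 50.3 kb, against 17.9 kb for all, and the part of gene length was not tested.

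The most-read such junction joined Smarcd3, a subunit of BAF chromatin remodelling complexes, to a contig 20 kb upstream at chr5:24127837-24130417, with 437 reads in field 1 and 596 in field 2 across an intron of 23720 nt. Smarcd3 had 144 ± 19.3 TPM, and its span was 33.6 kb in M21, against 11.2 kb in the mm9 table. A further junction of 469 and 681 reads lay wholly within this upstream locus, and M21 has both introns in Smarcd3. Robo1 (45.5 ± 0.495 TPM) was joined to a contig 97.3 kb upstream with 219 and 326 reads across 178342 nt, the junction whose coding exon ends are shown above. Before it the string was spliced on: 151 and 240 reads crossed 417951 nt and 162 and 252 reads crossed 117706 nt, both between far contigs, and neither length matched an M21 intron. Tmem178b (42.6 ± 0.368 TPM) was joined over 203137 nt with 178 and 309 reads, Plekha6, a pleckstrin domain protein gene, over 77408 nt with 232 and 290 reads, and Nav3 over 312838 nt with 42 and 74 reads. At each of these the fields differed in the direction of their totals.

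Rbfox1 had spliced exons far before its mm9 start. Its most-read junction had 273 reads in field 1 and 374 in field 2 across 321340 nt, and it ended just before the mm9 start of the gene. Alternative junctions led into the exon from which the most-read junction starts. Among those with a length found in M21, 79 and 109 reads crossed 138587 nt, and 85 and 100 reads crossed 314151 nt. A further 68 and 103 reads crossed 138964 nt and 64 and 102 reads crossed 138591 nt to the same exon start. Neither of the latter lengths matched an M21 intron. Before the junction of 314151 nt, 43 and 48 reads crossed 287740 nt from an exon farther out. All of these alternative and earlier junctions lay between far contigs. M21 has introns of 321340, 138587, 314151 and 287740 nt in Rbfox1, whose level was 65.6 ± 2.62 TPM. The later gene is 922.9 kb longer than in the mm9 table, which is less than the 1050 kb that the string spans, so part of the string lies outside the later gene as well. Other joined genes named by reads were Fgf12, a fibroblast growth factor family gene (53 and 53 reads, 307 kb upstream), Dpf3, a BAF complex subunit gene (166 and 158 reads, 259 kb upstream), Gpm6a, a neuronal membrane glycoprotein gene (75 and 172 reads, 172 kb upstream), and St3gal1, a sialyltransferase gene (105 and 175 reads, 14.0 kb upstream). Junctions of Tubb2a (239 and 216 reads), whose coding sequence has near-identical copies, and of zinc finger genes such as Zfp60 (235 and 432 reads, downstream) are uncertain, because reads can be shared between paralogs.

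**Figure D5:**
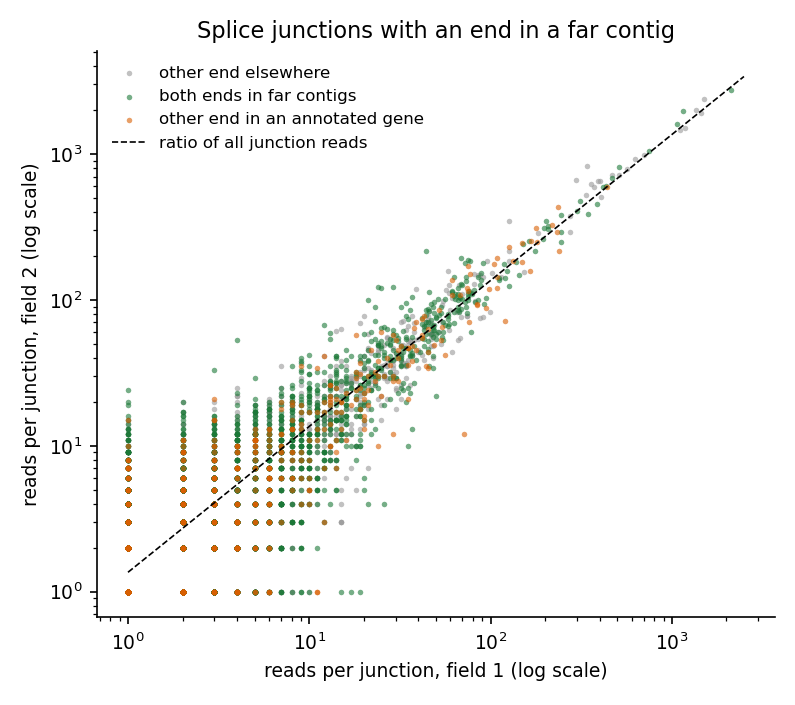
Each point is 1 of 6400 splice junctions with an end in a far contig, placed by its reads in field 1 and in field 2 (both log scales) and coloured by where its other end lies; the dashed line is the ratio of all junction reads. Points scatter widely below about 20 reads and follow the line at higher counts, up to the junctions with over 1000 reads in both fields.

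Of the 21484 loci, 2279 held a junction, and 670 of these (29.4%) had at least 1 intron of exactly the length of an M21 intron between the same neighbours. At least 2 introns matched in 278 loci (12.2%), and in 277 of these a pair of matched introns lay at the same distance from each other in M21, within 50 nt. A match by 1 intron rests on its length and neighbours alone, and how many such matches are accidental was not tested. The share with a match was 45.7% of 996 loci with at least 10 reads, 70.6% of 228 with at least 100 and 76.0% of 50 with at least 500. For 212 of the 670 loci the matched gene was already in the mm9 table, and for 458 it was not. Those 458 loci were matched to 413 genes, and in 300 of the loci the gene is a lincRNA and in 59 a protein-coding gene. Levels of the later genes were mostly low: of the 413, 106 had a row in the mm10 tables, with medians of 0.385 and 0.360 TPM in replicates 1 and 2, and 35 reached 1 TPM in both.

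The spliced loci with most reads lay at chromosome ends. The locus at chr4:3016640-3018335 on the minus strand had 10231 reads in field 1 and 14188 in field 2 over 58 introns, and the locus at chr11:3000358-3003594 on the plus strand had 7012 and 10267 reads over 55 introns. Neither had an annotated gene between it and the start of the chromosome, and neither matched an M21 intron. The loci span 1.70 and 3.24 kb, and their most-read introns were 409 and 1415 nt long. Whether these reads also fit repeated sequence was not tested.

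Next came loci of long non-coding RNAs. At chr7:69033473-69060757 on the minus strand, 8 contigs at 66.7 reads per nt carried 1718 reads in field 1 and 2582 in field 2, and 6 introns with 87.6% of the reads were those of A230057D06Rik. The most-read of them, the junction shown above, had 749 and 1041 reads across 1733 nt. A second locus, at chr7:68946140-68969434, had 1125 and 1724 reads, of which 20% lay in 2 introns of this gene. Its most-read junctions, 402 and 652 reads across 59444 nt and 433 and 600 reads across 97172 nt into the first locus, matched no M21 intron. A230057D06Rik spans 224 kb in M21, in the imprinted region that holds Ndn, a gene expressed from the paternal copy, and 7 of the 13 Mir344 microRNA genes annotated in M21 lie inside it on its strand. The distinct mature sequences of these 7 in RefSeq (GRCm38.p6) follow, with the seed, bases 2 to 8, in capitals. They are shown because these microRNA genes lie inside the gene whose introns both loci matched by length. Whether the RNA of these far contigs gives rise to the microRNAs was not tested, and mature microRNAs were not measured in these libraries.
mmu-miR-344-3p: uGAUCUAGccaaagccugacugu
mmu-miR-344c-3p: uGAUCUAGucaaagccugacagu
mmu-miR-344d-3p: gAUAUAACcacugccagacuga
mmu-miR-344e-3p: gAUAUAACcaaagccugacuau
mmu-miR-344h-3p: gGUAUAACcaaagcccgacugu
mmu-miR-344b-3p: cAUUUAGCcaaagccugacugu
mmu-miR-344-5p: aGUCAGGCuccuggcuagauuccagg
mmu-miR-344b-5p: aGUCAGGCuccuggcuaaaguuc
mmu-miR-344c-5p: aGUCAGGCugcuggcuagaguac
mmu-miR-344d-3-5p: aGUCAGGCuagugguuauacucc
mmu-miR-344e-5p: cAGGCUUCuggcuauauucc

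The Mir344 arms fell into few seed groups. On the 3p arm, miR-344 and miR-344c shared GAUCUAG and miR-344d and miR-344e shared AUAUAAC, while miR-344h and miR-344b each had their own. On the 5p arm, GUCAGGC was shared by miR-344, miR-344b, miR-344c and the copy named d-3, and AGGCUUC by miR-344e and miR-344h, whose 5p arms are identical. Of the 7 genes, Mir344e, Mir344b, Mir344c and Mir344 were in the mm9 table, so the far contigs here are only those over 10 kb from each of them.

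Nearby, at chr7:69320607-69367569 on the minus strand, 22 contigs carried 1343 and 2065 junction reads in fields 1 and 2. There 15 introns of Gm9801 held 92.6% of the reads, led by the junction across 71673 nt shown above with 126 and 215 reads. The locus at chr13:84153200-84206363 on the minus strand lay 156 kb from Tmem161b and, on its other side, 347 kb from Mef2c, a transcription factor gene of neurons and muscle. Its 37 contigs carried 1176 and 2022 reads. A single intron of Gm17750, of 38947 nt, took 1148 and 1964 of them, and the gene had 91.6 and 105 TPM in replicates 1 and 2. It was among the most abundant of the later genes: Snhg14, a snoRNA host transcript of the same imprinted region as Ndn, had 385 and 415 TPM, D430019H16Rik 63.8 and 67.3 TPM, and Lockd, the non-coding RNA downstream of the cell cycle inhibitor gene Cdkn1b, 53.1 and 74.1 TPM. The D430019H16Rik locus had 510 and 818 reads in its 1 matched junction, across 33454 nt between coding exons. The Lockd locus lay 12.8 kb from Cdkn1b and had 296 and 660 reads in its matched junction of 22045 nt.

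The genes nearest to far contigs were counted by group. Of all 20175 protein-coding genes, 30.1% were the nearest protein-coding gene of at least 1 far contig. Among transcription factors of neural development it was 84 of 105 genes (80.0%), with 4487 far contigs and a median of 16 per gene. Among cell adhesion and axon guidance genes it was 68 of 84 (81.0%), with 7005 far contigs, 7.50% of all. Among transmitter receptors and ion channels it was 41 of 48 (85.4%), among secreted signals 21 of 33 (63.6%), and among olfactory and vomeronasal receptor genes, which stand in dense clusters, 96 of 1290 (7.44%). The open space around a gene sets how many far contigs can be nearest to it, and the part of that space was not tested. The lists were also chosen with earlier results of these data known, so the shares describe them.

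Counting the nearest gene of any kind, 22.3% of all genes had a far contig, and the leading members of each list were as follows. Of the transcription factors, Zfhx3 had 419 (10.7 ± 2.76 TPM), the midbrain and hindbrain factor gene En1 173 (9.60 ± 2.35 TPM), the zinc finger gene Zic4 159 (53.4 ± 3.88 TPM) and Tshz3 113 (15.6 ± 3.16 TPM). Of the adhesion and guidance genes, Robo1 had 153, Lsamp 123 (22.6 ± 0.849 TPM), Nlgn1 100 (10.4 ± 1.41 TPM) and the contactin gene Cntn3 76. Chrm3 led the receptors and channels with 253 at 3.38 ± 0.184 TPM, followed by the calcium channel gene Cacna1e with 122. In the list of secreted signals Fgf12 had 57, though it encodes an intracellular member of the growth factor family that is not secreted; among secreted ligands Tgfb2 had 16 and Fgf9 and Pdgfc 11 each. Among sensory receptors Vmn2r87 had 48, Olfr266 46, Vmn2r3 35 and Vmn2r2 22, and these gene families have near-identical copies.

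A larger share of assembled models at far contigs than of all models was 2-fold apart between fields. Of 21445 assembled gene models with an exon on a far contig (median 0.0183 RPKM, against 0.0283 RPKM over all 145332 models), 1323 had a mean of at least 0.1 RPKM. Of these, 236 (17.8%) were 2-fold or more apart between fields on the log2 scale with 0.01 RPKM added, against 13.0% of all 30999 models at that level. They were higher in field 1 in 198 (15%, against 8.19% of all models) and higher in field 2 in 38 (2.87%, against 4.80%). The higher share came from models outside annotated genes: 20.1% of those 1082 were 2-fold apart, against 7.88% of the 241 that reached into an annotated gene. By level, models outside annotated genes gave 20.1% against 16.2% of all models at 0.1 to 0.3 RPKM, 22.2% against 10.4% at 0.3 to 1 RPKM and 15.7% against 6.22% at 1 RPKM and over. With 0.1 RPKM added the shares were 8.16% of models at far contigs and 6.01% of all models.

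The fields of the models and those of the junctions tended to run in opposite directions. Across 8431 genes with a mean of at least 1 TPM and 1 RPKM and with at least 100 junction reads, the log2 ratio of field 1 over field 2 in junction reads had a Pearson correlation of -0.90 with that in gene RPKM and of 0.94 with the log2 ratio of replicate 1 over replicate 2 in TPM. The assembled models ran with the gene RPKM, at 0.35 across 3363 genes, and against the replicates, at -0.39. Junction reads against models directly gave -0.39 across 3338 genes, so the order is less firmly set for the models than for the gene RPKM. Genes are not independent replicates, and all these values come from the same libraries. The 8 markers of muscle, cartilage and blood, higher in replicate 1 by TPM, were all higher in field 2 by gene RPKM, as for Myh3 with 0.0404 RPKM in field 1 and 3.75 RPKM in field 2. Field 1 of the models and field 2 of the junctions, in which far contigs had more 2-fold differences, thus tended to the same side, opposite to these markers. For the models this rests on weak correlations. The part of tissue content in the differences was not tested.

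Scaled to the total of each field, 154 of 1070 junctions with an end in a far contig and at least 20 reads (14.4%) were 2-fold or more apart, against 8.43% of all 175144 junctions with at least 20 reads. The shares were not split by read count, and the part of counting error was not tested. Of the 154, 50 were higher in field 1 and 104 in field 2, from 41 and 74 loci, whereas over all junctions 10889 were higher in field 1 and 3883 in field 2. Gm29260 contributed to the second group: its locus at chr1:41800058-42001748 on the plus strand had 270 reads in field 1 and 997 in field 2, a scaled log2 ratio of field 1 over field 2 of -1.44, and the gene had 3.84 TPM in replicate 1 and 9.97 TPM in replicate 2. The nearest protein-coding gene in its direction was Pou3f3, a neural POU domain factor gene, 752 kb away. The Sfta3-ps locus, 21 kb from Nkx2-1, a factor gene of ventral forebrain, had 351 and 838 reads, a scaled log2 ratio of -0.81, and Nkx2-1 itself had 20.4 and 43.4 TPM in replicates 1 and 2. The Lockd locus had 302 and 682 reads, a scaled log2 ratio of -0.73. With 1 value per field, none of these differences has a test.

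The 5 longest far contigs each lay before an annotated gene on their strand. The longest, chr3:118201132-118247210 on the plus strand, ran for 46079 nt at 93.6 reads per nt and belonged to a locus of 16 contigs in which 3 introns matched Gm26871, whose level was 5.20 and 8.21 TPM in replicates 1 and 2; the pyrimidine-degrading enzyme gene Dpyd lay 17.8 kb away. The contigs at chr6:39820772-39865714 (44943 nt at 41.5 reads per nt) and chr6:39998207-40035344 (37138 nt at 23.7 reads per nt) lay on the plus strand, 195 and 24.9 kb before Tmem178b. The contig at chr10:109599462-109636125 (36664 nt at 48.6 reads per nt) lay on the minus strand 162 kb before Nav3, and chr4:141937481-141978062 (40582 nt at 28.7 reads per nt, minus) lay 35.1 kb before Gm13052 and 142 kb before Kazn. Each of the 5 was listed as 1 contig on 1 strand, and whether coverage within it was free of gaps was not tested.

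The contigs farthest from any gene were of the opposite kind. The 5 farthest lay 996 to 1060 kb from a gene, were 200 to 228 nt long and had 1.51 to 4.76 reads per nt. They were chr10:15773419-15773623 (plus), chr3:42624569-42624768 (minus), chr14:81461505-81461732 (plus), chr3:42722253-42722464 (plus) and chr7:101323950-101324164 (plus). Of these 5, only the last belonged to a locus with splice junctions, with 8 reads in field 1 and 9 in field 2, and that locus matched the lincRNA Gm32647.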

How the data were processed

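Stranded poly(A)+ RNA-seq of 2 replicates of embryonic mouse central nervous system was taken from the tables as deposited. How reads were aligned, contigs called and genes quantified is not given in the sources used here. The authors made the contig table on mm9 from the pooled libraries, and its ninth column was read, from the values as deposited, as coverage signal summed over each contig; here it was divided by length. The authors' seventh column is proportional to that (constant 64.7). The authors' eighth column is a score computed per contig whose meaning is not stated. Per the file contents, the deposited junction table gives read counts in 2 fields, and the deposited gene model tables give RPKM, for Ensembl 65 genes (74620 lines reduced to 37310 genes) and for Cufflinks models. The authors' mm10 tables give TPM and expected counts per gene with GENCODE M4.

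Far contigs were found by interval arithmetic checked on simulated data against brute force. GENCODE M21 matched 32620 Ensembl 65 identifiers (87.4%) and, with RefSeq GRCm38.p6, gave names, intron lengths, spans and sequences; no coordinate was carried between builds, and 15 nt are shown on each side of a junction. Named loci are the 10 with most summed coverage, the 5 longest, 5 farthest and 5 densest contigs, the 5 spliced loci with most reads, and 4 genes of each list; the neighbourhoods, upstream strings, joined genes, later genes and the 6 genes with windows were added after values were seen. Members and lists were chosen with earlier results of these data known. The order of the fields was compared with the replicates across genes, and is not given by a label. There is 1 group, so no test was made; nothing shows that the replicates are more than 2 pools of littermates. Precision is limited by 1 pooled coverage value per contig, and intervals (exact, 95%) cover counting error only. Python 3.11.15, pandas 2.3.3, numpy 2.4.6, scipy 1.17.1 and matplotlib 3.10.9 were used. Alternatives changed distance, length, gap, overlap, read and pseudocount limits.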

Additional observations from a re-analysis of the deposited data

How the results depend on the processing

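Of 39 alternatives over 12 results, 13 kept their value within the limits set and 26 moved it. Whether an alternative reversed a direction was not scored, and the eighth-column setting was counted as moved whatever its value. The number of far contigs was 40382 at over 50 kb from a gene and 30032 at 500 nt or more, against 93351. Their median coverage was 2.72 reads per nt by the seventh column, 2.80 over 50 kb away, 2.64 from 100 nt and 4.12 from 500 nt, and the median length was 293 nt from 100 nt and 801 nt from 500 nt. The median distance was 65.6 kb to a gene on the contig's strand and 67.2 kb to a protein-coding gene. The share opposite to the nearest gene, 41.3%, was 41.7% over 20 kb away and 39.3% by protein-coding genes. A gap of 1 kb gave 38632 loci. Exon overlap was 27.9% when at least 50% of a contig had to overlap and 32.4% on either strand. The share with a junction end was 1.21% at 5 reads in both fields, 11.6% by field 1 alone and 13.5% by field 2 alone. Models 2-fold apart were 8.16% with a pseudocount of 0.1 RPKM (6.01% of all models), 0.605% with 1 RPKM (0.448% of all), 15.3% without a filter and 20.1% outside annotated genes, and the median RPKM was 0.0191 in field 1 and 0.0177 in field 2. The 10 leading loci held 35.9% of the coverage, and 15.7% without contigs of 1000 reads per nt or more. Of the far contigs 49.4% had 0.1 or less in the eighth column, against 54.9% within 10 kb of a gene and 72.1% in genes. Over all contigs of at least 200 nt it was 67.1%. The protein-coding alternatives, the models outside genes and the last coverage setting were chosen after seeing the data.

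No paired analysis was possible because there is 1 group, and replicates were left out only as 1 field alone. Depth limits most of what is seen: at a median of 2.74 reads per nt a far contig rests on a few read pairs, so that a missing junction shows no lack of splicing, and the number of junctions, contigs per locus and gaps between contigs all depend on depth. Contigs from repeated sequence were not separated, since column meanings and the aligner's treatment of reads that fit several places are not stated.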

Other observations

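Far contigs were spread unevenly over the chromosomes. Chromosome 16 had the highest share, 21.4% of its 22629 contigs of 200 nt or more, with a median coverage of 3.57 reads per nt and a median distance of 95.1 kb from a gene, and it holds the strings before Rbfox1, Robo1 and Lsamp. Chromosome 8 followed with 19.9% and the largest number, 7500, among them those before Tenm3, Nrg1 and Zfhx3. The lowest shares were 8.05% on chromosome 2 and 8.62% on chromosome 19, and the mitochondrial chromosome had 0 far contigs of 8. Chromosome 12 had the highest share of far contigs holding a junction end, 6.91%, and chromosome 16 the lowest, 3.05%.

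Some long strings had few junction reads or were not taken up by the later annotation. The string of 208 contigs at chr5:51969337-52364839 on the minus strand began 10.4 kb upstream of Ppargc1a, a coactivator gene of mitochondrial metabolism, and had 40 reads in field 1 and 48 in field 2 over 4 junctions, with no matched intron and the same span of Ppargc1a, 113 kb, in both annotations. Of these reads, 23 in field 1 and 28 in field 2 crossed 364014 nt into Ppargc1a, and 15 and 16 crossed 202613 nt between far contigs. The string of 200 contigs at chr10:8619843-9240675 on the minus strand, between Sash1 and Samd5, had 5 and 9 junction reads over 621 kb at 15.3 reads per nt. The string of 57 contigs at chr8:33600021-33977145 on the minus strand, 480 kb upstream of Nrg1, had 2 and 4 junction reads at 32.6 reads per nt, while M21 gives Nrg1 a span of 1070 kb, against 191 kb in the mm9 table.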
